A study of Mus musculus with 8 samples.

Results

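Sialic acids are the acidic sugars that end many glycans on the cell surface, and 10 genes of their synthesis and transfer were followed here among the 21524 genes of the deposited table. They comprise the synthesis genes Gne, Nans and Cmas, the hydroxylase gene Cmah and 6 sialyltransferase genes, St3gal1, St3gal4, St3gal6, St6gal1, St8sia1 and St8sia4. The set was chosen by symbol around Cmah, with the differences between IL-2 and control libraries in these same data already known, and all 10 symbols were found in the table. The values of these 10 genes are therefore given as a description, without p-values.

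The RNA came from flow-sorted mouse spleen Tregs (regulatory T cells, CD4 T cells that restrain immune responses). By their labels, 4 libraries (41 to 44) had been treated with IL-2 and 4 (45 to 48) were controls. The series concerns an IL-2 mutein, a modified IL-2 with extended half-life, given with CTLA-4 Ig to C57BL/6 recipients of BALB/c heart or kidney grafts. For these libraries the labels did not state which form of IL-2 was given or what the controls received. Nor did they state the strain, age or graft status of the animals, or whether each library was 1 animal. The error estimates therefore measure the spread between libraries, part of which may be technical. Ddx3y, a Y-linked gene, had reads in 2 of 4 IL-2 libraries (43 and 44) and in 3 of 4 controls (46 to 48). It was at 0 in libraries 41, 42 and 45, so neither group was made only of technical repeats of 1 sample. The groups thus differed in how many libraries held Y-linked reads.

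Estimated depth was 4953551 to 6399404 reads per library. All 7 listed Treg markers (Foxp3, Il2ra, Ctla4, Ikzf2, Tnfrsf18, Cd4 and Cd3e) were present in every library, Foxp3 with at least 1123 normalised reads. Their sum was higher with IL-2 (39231 to 44548 against 30064 to 31606), with Il2ra at 18107 ± 1601 and 6935 ± 781, while Cd4 was lower with IL-2, at 2523 ± 354 and 4136 ± 299.6. Some markers of other cells were also well measured, and several of their sums were lower with IL-2, but not all. The plasma cell sum averaged 370 ± 37.2 with IL-2 and 306 ± 33.0 in controls, and the neutrophil sum 9.42 ± 3.20 and 3.58 ± 2.82. Txndc5 made up most of the plasma cell sum (364 ± 37.3 and 302 ± 29.3), and Tnfrsf17, Derl3 and Mzb1 were at 0 in every library. The neutrophil sum was mostly Csf3r (8.95 ± 2.91 and 3.58 ± 2.82), with S100a9, Retnlg and Camp at 0 in every library. The erythroid sum averaged 14.2 ± 19.9 and 34.2 ± 37.9. In each of these lists the groups overlapped. The summed B cell markers (9 of 10 listed) lay between 103 and 215 normalised reads with IL-2 and between 383 and 499 in controls. Cd74 made up most of the control sum and was the 1 marker of the 9 whose IL-2 libraries all lay below the controls. Cd79b averaged 60.1 ± 31.1 with IL-2 and 42.0 ± 14.1 in controls, while Ms4a1 and Pax5 stayed below 4 reads in every library. The summed markers of monocytes, macrophages and dendritic cells lay between 912 and 1211 with IL-2 and between 1783 and 2039 in controls, mostly through Ctss (847 ± 121 with IL-2 and 1663 ± 140 in controls). Cd14 was at 0 in every library. For these 3 sums (Treg, B cell and myeloid) the two-sided exact permutation p was 0.0286, the smallest value possible with groups of 4, which became 0.05 when adjusted for 7 marker lists. The CD8 T and NK cell sum (58.7 to 125.0 against 125.4 to 239) had the same p-values, with groups that nearly met. Its fall came mostly through Eomes (7.28 ± 13.1 with IL-2 and 58.8 ± 14.8 in controls) and Klrb1c (2.90 ± 3.53 and 36.4 ± 29.5). The groups of Cd8a and Cd8b1 overlapped, Cd8b1 at 65.0 ± 12.2 and 67.8 ± 22.8. The part of other cells in the values below was not tested, and in bulk RNA fewer cells of a type and less RNA per cell cannot be told apart.

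In the cytosol, the enzyme encoded by Gne makes the precursor ManNAc-6-phosphate and the synthase encoded by Nans turns it into a phosphorylated form of the sialic acid Neu5Ac. The enzyme encoded by Cmas then couples Neu5Ac to CMP in the nucleus, and CMP-Neu5Ac is carried into the Golgi, where sialyltransferases place it on glycans. In mice, the product of Cmah can first convert CMP-Neu5Ac to CMP-Neu5Gc, the form that is abundant on resting mouse lymphocytes and that humans cannot make. Sialic acids on lymphocytes are read by lectins such as CD22 and other Siglecs, and they form part of the ligands of selectins.

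Of the 10 genes, Cmah and St8sia1 differed most, both lower with IL-2, by 3.14-fold and 6.58-fold. St3gal4 and Nans were higher with IL-2, by 1.85-fold and 1.46-fold. St6gal1 was 1.19-fold lower, and the 5 others had groups that overlapped. The fit over the deposited values took in 8 of the 10, leaving out Cmas and St3gal6, which had too few reads. Of these 8, 2 passed an adjusted p of 0.05 as higher (Nans and St3gal4) and 3 as lower (Cmah, St8sia1 and St6gal1). Of all 5261 genes in that fit, 31.4% passed, 16.8% as higher and 14.6% as lower. St8sia1 and St3gal4 entered the fit through the group in which they were high, and nothing is read from these counts. The same 5 genes had groups that did not overlap, as did 31.5% of all tested genes (16.7% with IL-2 higher and 14.7% with IL-2 lower). The median difference of the 8 genes was -0.07 on the deposited log2 scale, beside -0.01 for all tested genes.

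**Figure D1:**
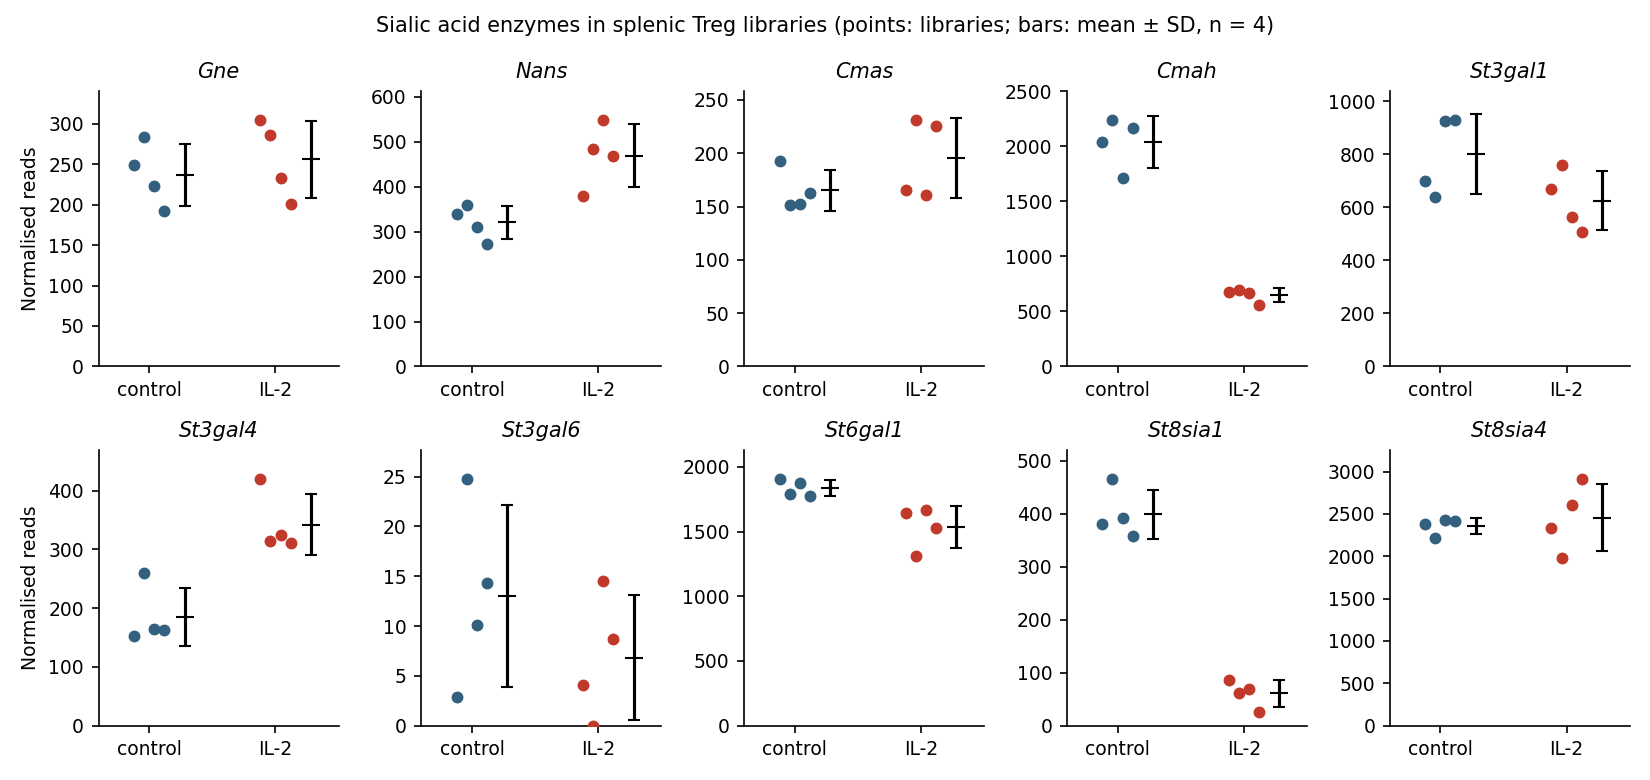
Normalised reads (vertical axes, linear from 0) of the 10 genes in each control and IL-2 library; points are libraries and bars are mean ± SD of 4. Cmah and St8sia1 lie lower in all 4 IL-2 libraries than in any control, and Nans and St3gal4 lie higher.

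Cmah had 677, 698, 666 and 556 normalised reads in IL-2 libraries 41 to 44. In control libraries 45 to 48 it had 2040.5, 2238, 1712 and 2167. The lowest control lay far above the highest IL-2 library. The means were 649 ± 63.8 and 2039 ± 233 (SD, n = 4 each), and the fitted difference on the deposited scale was -1.05 ± 0.07 SE. That scale is compressed for genes with few reads. On log2 of normalised reads plus 5, the difference was -1.64 (95% interval -1.87 to -1.41). Group means at least 3-fold lower with IL-2 were seen in 2.01% of the 10777 genes that had at least 10 reads in at least 4 libraries.

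St8sia1 encodes GD3 synthase, which adds a second sialic acid to the ganglioside GM3. It had 86.3, 61.5, 69.6 and 25.5 normalised reads in IL-2 libraries 41 to 44. In control libraries 45 to 48 it had 381, 465, 393 and 358. All 4 IL-2 libraries lay far below the controls, library 44 lowest. The means were 60.7 ± 25.7 and 399 ± 46.1, and the difference on log2 of normalised reads plus 5 was -2.72 (95% interval -3.36 to -2.09). On the deposited scale it was -0.83 ± 0.07 SE, and -0.77 without IL-2 library 44. Group means at least 5-fold lower with IL-2 were seen in 0.872% of the same 10777 genes.

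Cmah and St8sia1 followed each other over the libraries. Pearson's r between them on the deposited scale was 0.98 over the 8 libraries, and 4 other tested genes had a higher r with Cmah. This r is carried by the difference between the groups, which the 2 genes share by choice: over deviations from the group means it was 0.52. Among the 2619 well-measured named genes, those most like Cmah included Bltp1, Tcf7, Satb1 and Utrn, each with r of 0.98. Tcf7, a transcription factor gene of resting T cells, averaged 2584 ± 298 normalised reads in controls and 862 ± 139 with IL-2. Bltp1 and Utrn were 1.38-fold and 1.37-fold lower with IL-2, smaller differences than that of Cmah. Within the groups, r of these 4 genes with Cmah was 0.46 to 0.59.

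For the 3 genes with the largest fold differences that had reads enough to measure, Cmah and St8sia1 (lower) and St3gal4 (higher), the bases just upstream of an annotated start are shown, to compare what lies before genes that differed in opposite directions. RefSeq (GRCm38.p6) gave such starts for 8 of the 10 genes, in 13 windows, and 250 bases before each were searched on both strands. The letters searched included TTCNNNGAA, the core bound by STAT factors such as STAT5, and CTTTGA, a core of TCF family sites. GGGCGG, the GC box, and CACGTG, the E box, were searched too and are not marked. Matches to TTCNNNGAA or CTTTGA are in capitals, and these 2 cores did not overlap in any window. The windows shown lie at chr13:24327154-24327403 on the plus strand (Cmah, the upstream of 2 annotated starts), chr6:142964453-142964702 on the minus strand (St8sia1) and chr9:35116865-35117114 on the minus strand (St3gal4).
Cmah: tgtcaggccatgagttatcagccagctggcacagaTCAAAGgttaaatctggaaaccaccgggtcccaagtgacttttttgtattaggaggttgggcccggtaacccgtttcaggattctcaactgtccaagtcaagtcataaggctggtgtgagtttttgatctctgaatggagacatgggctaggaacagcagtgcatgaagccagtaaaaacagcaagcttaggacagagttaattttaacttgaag
St8sia1: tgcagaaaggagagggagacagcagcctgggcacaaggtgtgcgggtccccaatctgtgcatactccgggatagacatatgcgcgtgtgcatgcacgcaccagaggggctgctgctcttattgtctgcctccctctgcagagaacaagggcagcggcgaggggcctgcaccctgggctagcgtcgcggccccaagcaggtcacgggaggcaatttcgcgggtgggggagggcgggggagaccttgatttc
St3gal4: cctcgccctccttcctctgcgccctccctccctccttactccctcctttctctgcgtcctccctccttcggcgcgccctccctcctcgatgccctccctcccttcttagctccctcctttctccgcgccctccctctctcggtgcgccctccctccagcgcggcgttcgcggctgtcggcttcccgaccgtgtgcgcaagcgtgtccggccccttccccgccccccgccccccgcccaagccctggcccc

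The Cmah window held 1 CTTTGA core, read on the minus strand and beginning 215 bases before the start. The second Cmah window, and those of St8sia1 and St3gal4, held none. Of the 13 windows, 3 held the core, the other 2 belonging to Gne and St3gal6, whose groups overlapped. CTTTGA was found in 13.8% of all 32851 such windows. TTCNNNGAA was found in none of the 13 windows of these genes and in 7.02% of all windows, which says only that the letters are not in these 250 bases. GGGCGG was in neither Cmah window, occurred 1 time for St8sia1 and 3 times for St3gal4, and was in 32.7% of all windows. It was also found for St3gal6 and St8sia4, whose groups overlapped. CACGTG was in none of the 13 windows and in 6.02% of all windows. The windows differed in CpG content: 3 CpG for Cmah, 14 for St8sia1 and 25 for St3gal4, where the median window had 6. Which start the Tregs used was not tested.

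Among the synthesis genes, Nans had groups that did not overlap, while those of Gne and Cmas did. Gne had 305, 286, 233 and 200.4 normalised reads in IL-2 libraries and 248, 284, 222 and 192 in controls, so the groups overlapped, with IL-2 libraries 41 and 42 above all controls and control library 48 below all IL-2 libraries. Its difference on the deposited scale was 0.04 (95% interval -0.10 to 0.18). Nans had 379, 483, 549 and 468 with IL-2 and 339, 359.6, 311 and 274 in controls. The groups did not overlap, but library 41 lay only just above the highest control. The means of Nans were 469.5 ± 69.8 and 321 ± 37.3, and its difference was 0.24 (95% interval 0.10 to 0.37).

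Cmas, which activates the sugar, had 166, 231, 161 and 225 normalised reads with IL-2 and 193, 151, 153 and 163 in controls. IL-2 libraries 42 and 44 lay above all controls and the other 2 lay among them. On log2 of normalised reads plus 5 its difference was 0.23 (95% interval -0.16 to 0.62). Cmas and St8sia1 lie close together on chromosome 6, with 1 protein-coding gene, Sult6b2, between them in RefSeq, and St8sia1 was lower with IL-2 while the Cmas groups overlapped.

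Since the substrate of the hydroxylase is the product of the enzyme encoded by Cmas, reads of Cmah were also set against reads of Cmas within each library, a ratio that scaling between libraries cannot alter. It was 4.08, 3.02, 4.14 and 2.47 in IL-2 libraries 41 to 44 and 10.6, 14.8, 11.2 and 13.3 in control libraries 45 to 48. All IL-2 ratios lay below all control ratios. The means were 3.43 ± 0.823 and 12.5 ± 1.95, 3.64-fold lower with IL-2. Because the 2 transcripts differ in length, the ratio is not one of molecules.

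**Figure D2:**
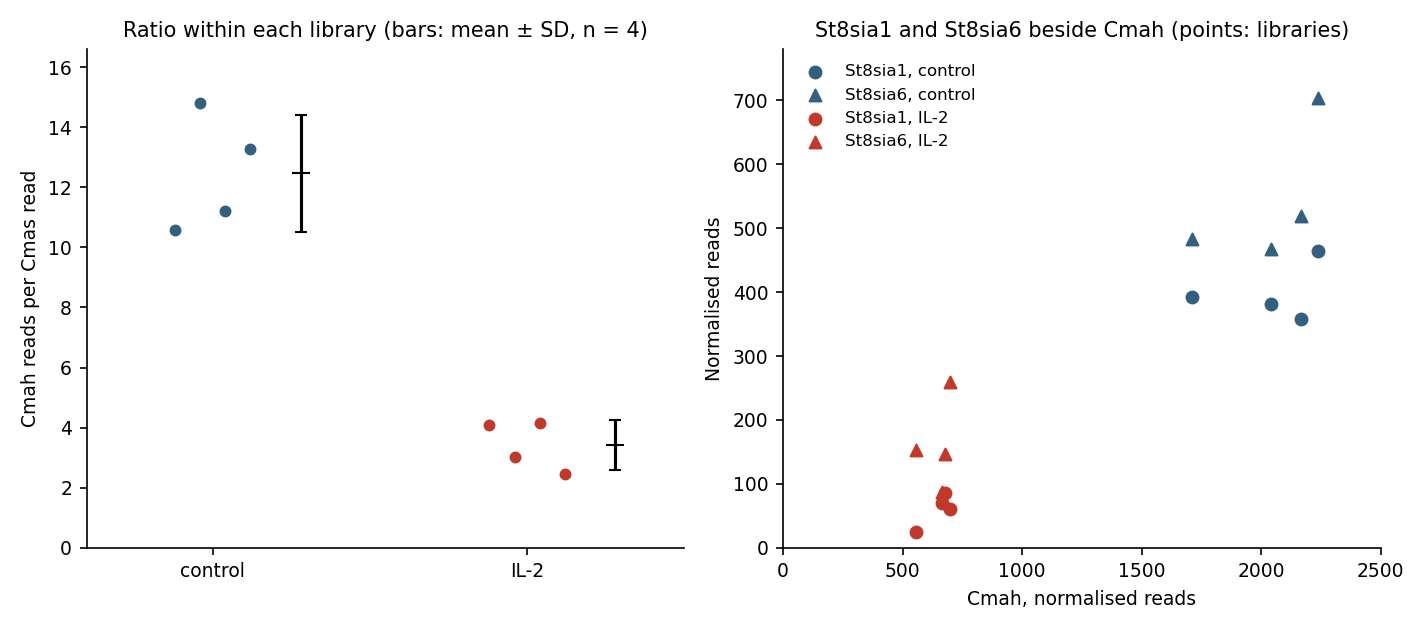
Left, reads of Cmah per read of Cmas in each library, with mean ± SD of 4; right, normalised reads of St8sia1 (circles) and St8sia6 (triangles) against those of Cmah, each point a library. IL-2 ratios lie between 2.47 and 4.14 and control ratios between 10.6 and 14.8, and both transferase genes are low in the libraries where Cmah is low.

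Of the 3 transferase genes that place sialic acid on galactose in alpha-2,3 linkage, St3gal4 was higher with IL-2 and the groups of St3gal1 and St3gal6 overlapped. St3gal4, which acts on N-acetyllactosamine ends and contributes to selectin ligands, had 419, 314, 325 and 309.9 normalised reads with IL-2. In controls it had 153, 259, 164 and 163. The groups did not overlap, with library 41 high among the IL-2 libraries and library 46 high among the controls. The means were 342 ± 51.8 and 185 ± 49.8, and the difference on log2 of normalised reads plus 5 was 0.89 (95% interval 0.49 to 1.29).

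St3gal1, which caps core 1 O-glycans such as those of CD43, had 671, 759.6, 565 and 507 normalised reads with IL-2 and 701, 640.1, 928 and 929.6 in controls. The groups overlapped, since controls 45 and 46 lay within the range of the IL-2 libraries. Its difference on the deposited scale was -0.19 (95% interval -0.38 to -0.01, before adjustment). Given as a description only, it passed neither in the fit nor in any of 17 alternatives. St3gal6, a relative of St3gal4, was near the limit of detection. It had 4.10, 0, 14.5 and 8.74 normalised reads with IL-2 and 2.92, 24.7, 10.1 and 14.3 in controls. The 0 in library 42 allows up to 2.75 normalised reads, for counting error only, and a difference was not detectable at this depth.

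St6gal1, whose product adds alpha-2,6-linked sialic acid to N-glycans and so makes the ligand of CD22, had 1644, 1310.4, 1666 and 1530.3 normalised reads with IL-2. In controls it had 1904, 1789, 1877 and 1778. The groups did not overlap, but the gap between them was narrow, and library 42 was the lowest. The means were 1538 ± 163 and 1837 ± 62.9, a difference of -0.18 on the deposited scale (95% interval -0.32 to -0.05). St6gal1 passed in 9 of 18 alternatives, which is a description only, since the gene was chosen on this contrast. It did not pass when any of IL-2 libraries 42 and 44 or of control libraries 45 to 48 was left out (differences from -0.21 to -0.13 over all left-out libraries), without the filter on low values, on log2 reads plus 1, or with a covariate for whether a library held reads of Ddx3y, a Y-linked gene.

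St8sia4 encodes a polysialyltransferase, which builds long chains of alpha-2,8-linked sialic acid on carriers such as neuropilins and CCR7. It had 2329.8, 1980.3, 2604 and 2909 normalised reads with IL-2 and 2385, 2221, 2425 and 2414 in controls. The control libraries were close together and lay inside the wider range of the IL-2 libraries. The means were 2456 ± 396 and 2361 ± 95.2, and the difference on the deposited scale was 0.04 (95% interval -0.14 to 0.21). The difference became -0.03 without IL-2 library 44 and 0.11 without IL-2 library 42. The coefficient of variation was 16.1% with IL-2 and 4.03% in controls. Library 44, which held the most St8sia4 reads and the fewest of Cmah, St8sia1 and St3gal1 among the IL-2 libraries, also held 13044 reads of the proliferation gene Mki67, against 5332 to 6142 in the other 3. Mki67 was also higher in all 4 IL-2 libraries than in any control (2810 to 4271). The part of proliferation in these values was not tested.

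As a share of the summed reads of the 6 transferase genes, St8sia1 made up 1.22% ± 0.514 with IL-2 and 7.16% ± 1.003 in controls, and St3gal4 made up 6.82% ± 1.02 and 3.33% ± 0.988. Neither pair of groups overlapped. The share of St8sia4 was 48.6% ± 4.77 and 42.2% ± 0.893, also without overlap, although its reads overlapped. That of St6gal1 was 30.6% ± 1.51 and 32.8% ± 1.27. The summed reads of the 6 genes were 5029 ± 406 and 5595 ± 171, 1.11-fold lower with IL-2 and without overlap. These are shares of reads, to which long transcripts contribute more.

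**Figure D3:**
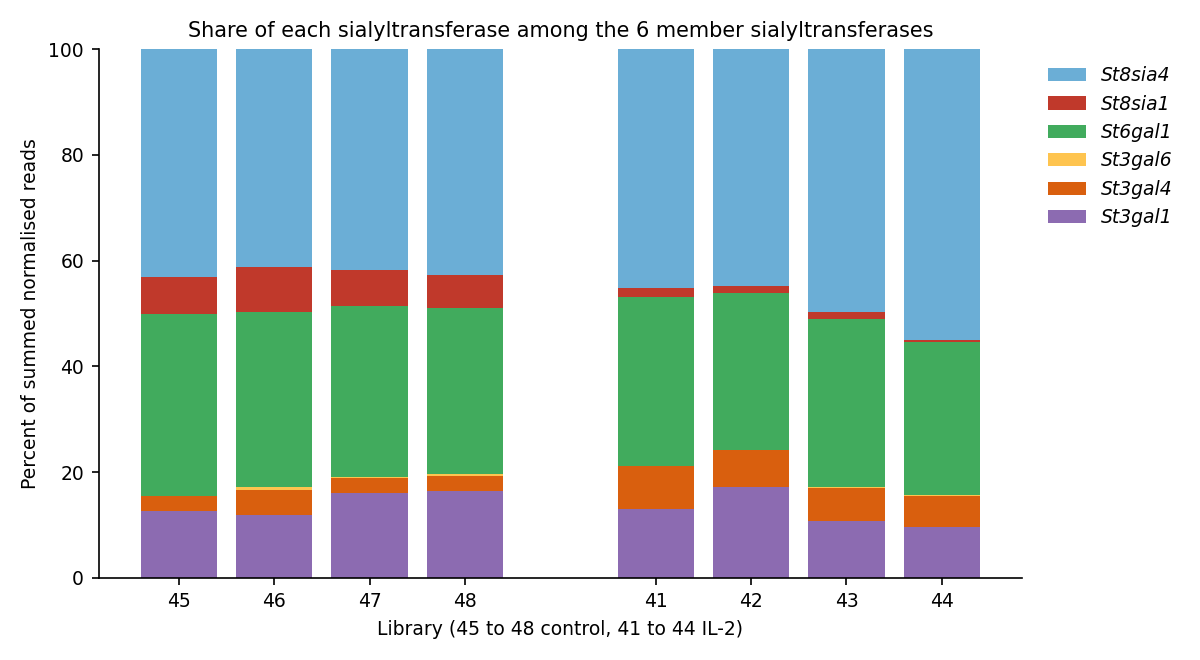
Percent of the summed normalised reads of the 6 member sialyltransferase genes (vertical axis) held by each gene in each library, controls on the left and IL-2 on the right. The St8sia1 segment shrinks from a mean of 7.16% to 1.22% and the St3gal4 segment grows from 3.33% to 6.82%.

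Levels were compared between genes as reads per kb of exonic sequence (GENCODE M21). In controls, St6gal1 stood highest with 379.8 ± 13.0 reads per kb, and Cmah followed with 200.3 ± 22.9. Cmah, St8sia4 (165 ± 6.64), Nans (147 ± 17.1) and St3gal1 (138 ± 26.05) then followed, and the libraries of each overlapped in range with those of the next. With IL-2, St6gal1 was again highest, at 318 ± 33.7 reads per kb. Nans (215 ± 32.03), St8sia4 (171 ± 27.6) and St3gal4 (163 ± 24.7) then came in overlapping ranges, while Cmah stood at place 7 of the 10 with 63.8 ± 6.27. St3gal6 was lowest in both groups. With the median coding transcript as the length, Cmah kept places 2 and 7.

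The rest of the pathway was taken from 7 lists of 85 other genes, of which 33 had enough reads for the fit on the deposited scale and 5 rose and 10 fell (limma adjusted p), where 16.8% of all 5261 genes rose and 14.6% fell. On log2 of normalised reads plus 5, where more genes could be fitted, 64 were tested, 8 rose and 14 fell. Of all 10777 genes in that fit, 10.9% rose and 9.07% fell. All 7 lists were chosen with earlier results of these data known, so these counts are not an independent test. They include genes that entered a fit through the group in which they were high (St8sia6 and Casd1 on the deposited scale, Selp on log2 reads). In the supply of the precursor sugar, 0 of 8 genes passed in limma's fit on log2 reads, and 1 of the 8 (Uap1) had an unadjusted p under 0.05. Only 1 of them could be fitted on the deposited scale, and it did not pass. Uap1, which makes UDP-GlcNAc, the substrate of the enzyme encoded by Gne, came closest, at 218 ± 26.5 and 152 ± 20.3 normalised reads (limma adjusted p = 0.0522 on log2 reads).

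Between synthesis and transfer, 0 of 3 tested genes passed in limma's fit on log2 reads, and 0 of the 3 had an unadjusted p under 0.05. Nanp, the phosphatase that frees Neu5Ac, stood at 70.7 ± 5.25 (IL-2) and 86.4 ± 12.03 (control) normalised reads (limma adjusted p = 0.454). Slc35a1, the carrier of CMP-sialic acid into the Golgi, had 95.6 ± 21.3 and 100.1 ± 19.9 (limma adjusted p = 0.883). Npl, the lyase of sialic acid breakdown, was at 0 in every library. Both adjusted p-values come from the fit on log2 reads, since these genes had too few reads for the fit on the deposited scale.

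Of the 14 other sialyltransferase genes, 5 were at 0 in every library and 6 could be tested on log2 reads, of which 1 rose and 3 fell. St8sia6, an alpha-2,8-sialyltransferase gene, had 147, 259, 87.0 and 154 normalised reads with IL-2 and 467, 703, 484 and 519 in controls. Every IL-2 library lay below every control, and the fall was 3.36-fold (limma adjusted p = 1.46e-04 on the deposited scale, and 6.2e-05 to 8.37e-04 over its alternatives). St8sia6 entered the fit on the deposited scale through the controls, since of the IL-2 libraries only library 42 met its filter. On log2 reads plus 5, every library met the filter (limma adjusted p = 5.41e-04). St6galnac3, of the family that sialylates O-glycans and gangliosides, fell 2.31-fold, from 130 ± 15.3 to 56.2 ± 24.1 (limma adjusted p = 0.0115 on log2 reads). St3gal5, which makes the GM3 that GD3 synthase extends, fell 1.95-fold, from 109 ± 33.5 to 56.0 ± 14.3 (limma adjusted p = 0.0434), but had an adjusted p of 0.0652 in the fit without a filter. The St3gal5 groups overlapped, with IL-2 library 44 at 75.1 and control library 45 at 72.8.

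St3gal2, another alpha-2,3-sialyltransferase gene, rose from 433 ± 71.1 to 599.7 ± 86.6 (limma adjusted p = 0.0246), with groups that overlapped. It did not pass when any of IL-2 libraries 41 to 43 or control libraries 45 to 47 was left out (adjusted p from 0.0534 to 0.0727). St6galnac4 had 102 ± 37.0 and 131 ± 30.7 (adjusted p = 0.382). St6galnac6 had 3.89 ± 4.57 and 18.5 ± 9.08 normalised reads, too few to be tested in either fit.

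Upstream of the gangliosides, Ugcg, whose enzyme makes the glucosylceramide from which they are built, fell from 863 ± 148 to 516 ± 28.3 (limma adjusted p = 0.00119). Sialidases and sialic acid O-acetylation genes gave 1 fall and 0 rises among 3 tested on the deposited scale. Casd1, which adds O-acetyl groups to sialic acid, fell from 337 ± 92.8 to 208 ± 50.1 (limma adjusted p = 0.0355). It entered this fit through the controls, since of the IL-2 libraries only library 44 met the filter. On log2 reads, every library met the filter (limma adjusted p = 0.0465). The Casd1 groups overlapped, with IL-2 library 44 at 280 and control library 47 at 232. Casd1 did not pass when any of IL-2 libraries 41 to 43 or control libraries 46 and 48 was left out (adjusted p up to 0.105), with the Ddx3y covariate (0.0630), without the filter (0.0667) or on log2 reads plus 1 (0.0508). The sialidase gene Neu3 had 269 ± 45.6 and 346 ± 23.1 (adjusted p = 0.0714). Leaving out IL-2 library 42 brought its adjusted p to 0.0275, and the Ddx3y covariate brought it to 0.0459. Neu1, the lysosomal sialidase gene, had 63.9 ± 42.0 and 54.5 ± 31.6 (adjusted p = 0.9001 on log2 reads).

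Among 31 genes that build the acceptor glycans, 18 were tested on the deposited scale, of which 3 rose and 2 fell. Fut8, the core fucosyltransferase gene, rose 1.76-fold, from 264 ± 42.8 to 464 ± 63.2 (limma adjusted p = 0.00141). Slc35c1, the carrier of GDP-fucose into the Golgi, rose from 319 ± 63.6 to 549 ± 84.5 (adjusted p = 0.00252), and Ggta1, which caps galactose with another galactose, rose from 292 ± 41.8 to 463 ± 94.4 (adjusted p = 0.0114). On log2 reads 28 were tested, of which 6 rose and 2 fell. The genes added there were Fut7, the fucosyltransferase gene of selectin ligands (19.2 ± 7.51 to 57.6 ± 7.73, adjusted p = 0.00974), B4galt4 (18.9 ± 15.8 to 92.2 ± 24.4, adjusted p = 0.00509) and Mgat4b (43.8 ± 18.8 to 117 ± 19.6, adjusted p = 0.00645), a branching enzyme gene of N-glycans, all limma. In both fits the 2 falls were those of Ugcg, given above, and Mgat5 (992 ± 109 to 755 ± 99.7, limma adjusted p = 0.0187 on the deposited scale).

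**Figure D4:**
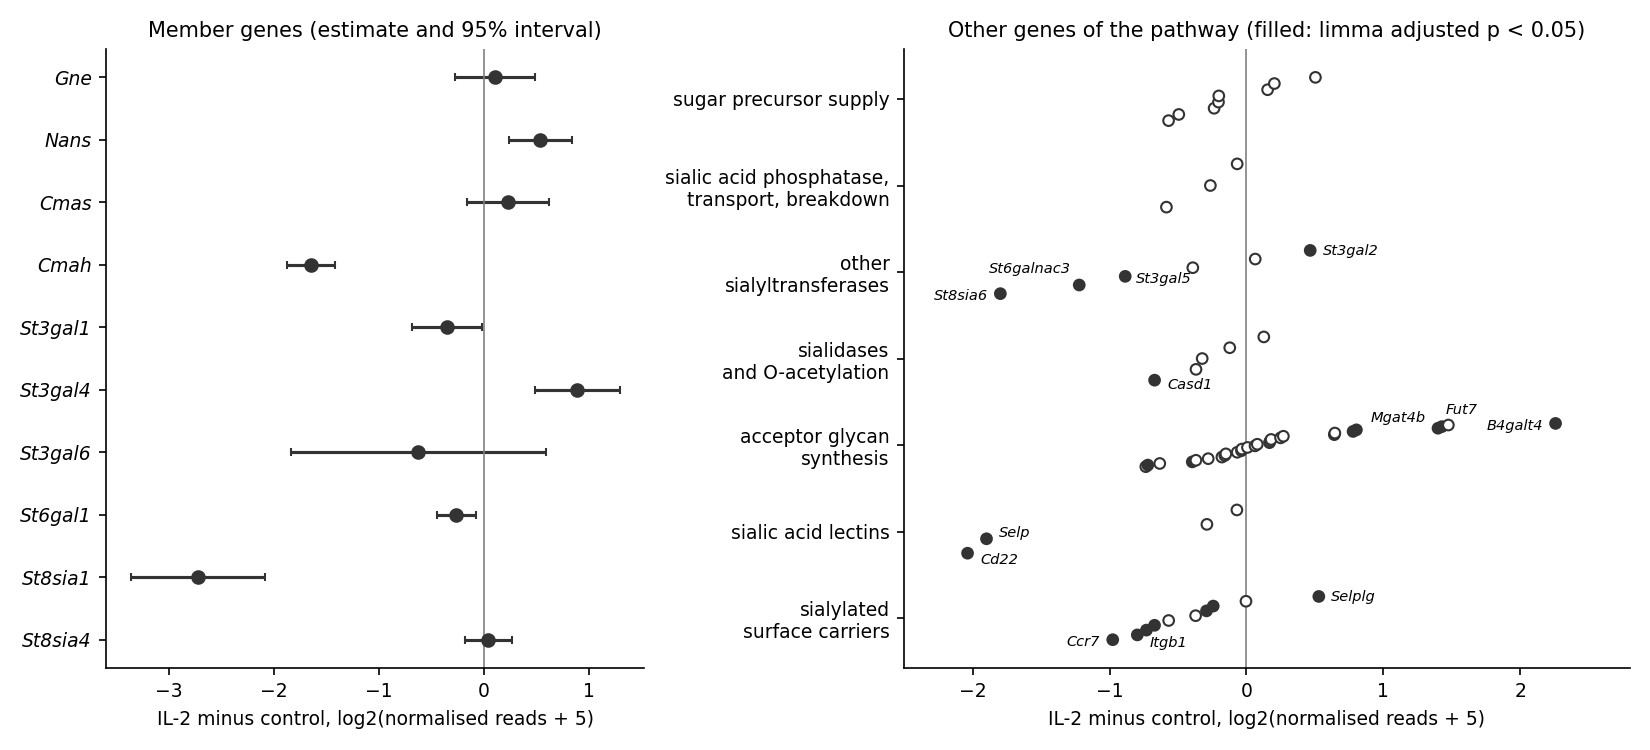
Differences between IL-2 and control on log2 of normalised reads plus 5 (horizontal axes): left, the 10 member genes with 95% intervals; right, the genes of the 7 other lists, filled where the limma adjusted p was under 0.05. St8sia1 and Cmah lie farthest to the left among the 10 genes, at -2.72 and -1.64.

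Of 8 carriers of sialylated glycans tested on the deposited scale, 1 rose and 6 fell, beside the 16.8% and 14.6% of all genes in that fit. The list was chosen with results of these data known. Selplg, which encodes the selectin ligand PSGL-1, rose from 2680 ± 173 to 3869.8 ± 263 (limma adjusted p = 1.97e-04). Itgb1 fell from 2394 ± 118 to 1380.2 ± 149 (adjusted p = 2.42e-05), and Ccr7 and Cd44 fell 1.96-fold and 1.58-fold (adjusted p = 2.94e-04 and 5.91e-04). Among 11 lectin genes that bind sialic acid, 4 were at 0 in every library and 4 could be tested on log2 reads, of which 0 rose and 2 fell. Cd22, the lectin that reads the product of the St6gal1 enzyme, fell from 114 ± 20.1 to 24.1 ± 5.53 (limma adjusted p = 2.57e-04), and Selp, the gene of P-selectin, fell from 16.9 ± 4.91 to 0.9501 ± 1.90 (limma adjusted p = 0.00962). Selp met the filter on low reads only through the 4 controls, so that it had to differ. Cd22 is also known as a B cell gene, and it was lower in the same libraries as the B cell sum given above, which followed Cd74 and not Cd79b. The part of B cells in its fall was not tested.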

How the data were processed

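Expression was measured in 8 libraries of Tregs sorted from mouse spleen, 4 IL-2 and 4 control, made with a stranded total RNA kit, per the labels' protocols. The authors deposited 1 table of variance-stabilised log2 values. Per the submitters' processing notes, Salmon, DESeq2 and the build GRCm39 were used. Their settings, the annotation and any filters were not given in those notes.

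Normalised reads were recovered by inverting the parametric variance-stabilising formula, fixed by the lowest value of 8.69, which stands for 0 reads. Of the 5 commonest low values of each library, 39 of 40 were whole reads within 0.001. The commonest value of each library was itself taken as 1 read, so it was whole by construction. On the deposited scale, 1 unit above the lowest corresponds to 206 normalised reads (coefficient of variation from counting error, 6.96%). Salmon divides shared reads by estimation, so no count test was run.

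Genes at least 1 above the lowest value in at least 4 libraries (5261) were fitted with limma 3.58.1 (R 4.3.3, eBayes with trend) and adjusted by the Benjamini-Hochberg method over all of them, with a threshold of 0.05. A second fit, on log2(normalised reads + 5), took the 10777 genes that reached 10 reads in 4 or more libraries. Folds are ratios of group means of normalised reads. Marker sums were compared by exact permutation over 70 splits. The fit was tested on simulated data. Members and lists were chosen with earlier results of these data known. Pathway genes named were up to 4 per list with the smallest adjusted p on the deposited scale plus 9 set by name (Slc35a1, Nanp, Npl, Neu1, Neu3, St3gal2, St3gal5, St6galnac4 and St6galnac6). Uap1, St6galnac3, Fut7, B4galt4, Mgat4b, Mgat5, Cd22 and Selp were named after their values were seen. Genes like Cmah were ranked by Pearson's r among tested genes at or above the median level, leaving out predicted genes. Some genes are not reported here. Other steps ran in Python 3.11.15 (pandas 2.3.3), and plots were drawn with matplotlib 3.10.9.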

Additional observations from a re-analysis of the deposited data

Results flagged for a closer look

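In 8 of the 96 groups of 4 libraries examined, 1 library lay farther from the others than Dixon's 95% limit for 4 values allows. Chance alone gives this in about 1 of 20 groups. St3gal4 had 419 normalised reads in IL-2 library 41, where the other 3 had 309.9 to 325, and 259 in control library 46, where the others had 153 to 164. As a share of the 6 transferase genes, St3gal4 stood at 4.80% in control library 46 and at 2.77% to 2.89% in the other controls. The summed reads of the 6 transferase genes were 4426 in IL-2 library 42 and 5155 to 5290 in the other IL-2 libraries. Nanp had 62.9 normalised reads in IL-2 library 44 and 72.7 to 73.7 in the others. In control library 47, Fut8 had 328 and in the others 240 to 248. Control library 48 was low for Itgb1 (2218, others 2435 to 2465) and for Neu3 (311, others 354 to 359).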

How the results depend on the processing

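The values of the 10 genes under alternatives are a description, since the genes were chosen on this contrast. The stricter filter, 2 above the lowest value, left St8sia1, Nans and St3gal4 out of the fit. On the deposited scale the Cmah difference ranged from -1.11 to -1.02 and that of St8sia1 from -0.87 to -0.77. These ranges cover scalings, weights, the Ddx3y covariate and each library left out. Filters and variance models cannot move these differences, so nothing is read from their staying the same there. With the stricter filter (1519 genes), 380 of all genes rose and 357 fell, 0 of the 10 genes were called higher, since neither Nans nor St3gal4 was in that fit (limma; the count at an unadjusted p under 0.05 was therefore also 0 for them), and 1 other pathway gene rose and 5 fell, since fewer genes were tested. The other pathway genes that rose numbered 8 without a filter, 8 on log2 reads plus 5 and 9 on log2 reads plus 1, where more genes were tested. No paired analysis was possible because the groups share no replicate numbers. Of 217 values for named pathway genes under alternatives, 15 lost the call, 2 gained it and 0 reversed. With a library left out, 757 to 828 genes rose and 621 to 707 fell. Depth limits St3gal6, which had at most 24.7 reads.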
